A study of Mus musculus with 8 samples.

Results

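The genes described here are 8 transcription factors that set and maintain the identity of hepatocytes, the main cell type of the liver. They are *Hnf4a*, *Prox1*, *Onecut1*, *Foxa1*, *Foxa2*, *Foxa3*, *Cebpa* and *Cebpb*, chosen by name as liver-enriched factors and found in the gene counts by their Ensembl identifiers. All 8 were among the 45706 identifiers in the table of counts and among the 15491 genes with enough counts to be tested. RNA was sequenced from the livers of 8 male mice of the strain labelled C56B6/J, 4 labelled genotype Srsf10KD (*Srsf10-kd* below) and 4 labelled WT (*Ctrl* below). Each mouse was injected at 6 weeks of age with an adeno-associated virus of serotype 2/8. In the *Srsf10-kd* mice it carried a short hairpin RNA against *Srsf10*, a splicing factor of the SR family, and in the *Ctrl* mice a control hairpin, in both from the chicken β-actin promoter, which is active in many cell types. From 4 weeks after the injection, all 8 mice received a high fat diet with 60% of calories from fat for 12 weeks, so no liver on a standard diet enters the comparison. The libraries held 50456404 to 59697241 reads counted on genes.

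Hepatocyte identity depends on a network of these factors, which bind each other's promoters and, together, the enhancers of genes for plasma proteins, lipid transport, bile acid synthesis and glucose production. HNF4A is a nuclear receptor at the centre of that network, FOXA1, FOXA2 and FOXA3 are forkhead factors that can open compacted chromatin, CEBPA and CEBPB are leucine zipper factors, and ONECUT1 (also called HNF6) and PROX1 are homeodomain factors. None of these genes is used by hepatocytes alone. Bile duct cells also use *Foxa* genes and *Onecut1*, pancreatic cells use *Foxa* genes, *Onecut1* and *Prox1*, lymphatic endothelial cells depend on *Prox1*, and many cell types use *Cebpb*. In a whole piece of liver, fewer cells of a type and less RNA per cell cannot be told apart.

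A few facts about the libraries bear on every value below. *Srsf10* itself, the gene targeted by the hairpin, was not lower in the libraries labelled *Srsf10-kd*: it stood at 34.0 to 41.0 CPM (the deposited counts brought to 1 shared library total, here after TMM scaling) against 30.9 to 35.3 in *Ctrl*, with a log2 fold change of 0.15 (SE 0.10) and, by the quasi-likelihood test of edgeR, a Benjamini-Hochberg adjusted p of 0.378. The groups are called by their labels here, and every direction given below rests on them. On the first principal component, which held 44.8% of the variance, *Srsf10-kd* 3 stood at 67.4 and the other 7 livers between -41.8 and 11.5. Libraries also differed in how counts scaled with transcript length. The slope of log2 CPM on log2 transcript length was 0.635, 0.646, 0.513 and 0.679 in *Ctrl* 1 to 4, and 0.517, 0.518, 0.352 and 0.477 in *Srsf10-kd* 1 to 4, so that long transcripts took a smaller share of the counts in *Srsf10-kd* 3 and *Ctrl* 3 than in the other livers of their groups.

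The promoter stretches of the genes on which the results turn are printed here, so that they can be read beside the values. They are the upstream and the downstream start of *Hnf4a*, the factor with the lowest unadjusted p among those at a lower level, then *Foxa1*, *Foxa2* and *Onecut1*, which were high in the same livers, and *Cebpb*, whose groups did not overlap. Each is the 250 bases before a transcription start in RefSeq on GRCm38.p6, 5′ to 3′ in the direction of the gene. RefSeq held 12 starts for the 8 genes, and the stretch from 250 bases before to 50 bases after each start was searched on both strands for short motifs, which stand in capitals.
*Hnf4a*, upstream start, chr2:163506607-163506856, plus strand: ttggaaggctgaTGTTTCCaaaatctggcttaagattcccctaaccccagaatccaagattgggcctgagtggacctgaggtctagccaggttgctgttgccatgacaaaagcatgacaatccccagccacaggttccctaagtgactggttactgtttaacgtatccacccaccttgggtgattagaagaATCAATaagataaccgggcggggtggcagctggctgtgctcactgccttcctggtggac
*Hnf4a*, downstream start, chr2:163546905-163547154, plus strand: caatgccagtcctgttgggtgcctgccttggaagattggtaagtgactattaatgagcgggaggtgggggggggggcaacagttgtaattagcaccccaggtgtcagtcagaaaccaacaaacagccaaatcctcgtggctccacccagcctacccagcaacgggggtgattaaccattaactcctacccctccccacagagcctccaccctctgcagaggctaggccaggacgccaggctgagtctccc
*Foxa1*, chr12:57546112-57546361, minus strand: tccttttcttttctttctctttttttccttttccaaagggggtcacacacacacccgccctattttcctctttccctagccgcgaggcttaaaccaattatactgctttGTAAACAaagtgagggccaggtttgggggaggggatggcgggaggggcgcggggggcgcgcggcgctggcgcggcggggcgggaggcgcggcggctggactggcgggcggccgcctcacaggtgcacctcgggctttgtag
*Foxa2*, most upstream start, chr2:148046970-148047219, minus strand: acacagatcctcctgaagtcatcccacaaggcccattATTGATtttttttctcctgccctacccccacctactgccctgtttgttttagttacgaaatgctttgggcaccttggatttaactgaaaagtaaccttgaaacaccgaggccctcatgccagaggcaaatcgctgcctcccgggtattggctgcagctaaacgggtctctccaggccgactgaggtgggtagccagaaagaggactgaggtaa
*Onecut1*, chr9:74861671-74861920, plus strand: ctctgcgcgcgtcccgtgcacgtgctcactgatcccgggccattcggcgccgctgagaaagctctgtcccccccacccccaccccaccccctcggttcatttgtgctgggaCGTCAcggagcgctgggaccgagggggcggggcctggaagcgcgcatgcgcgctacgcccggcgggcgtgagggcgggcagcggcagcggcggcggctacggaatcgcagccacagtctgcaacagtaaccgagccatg
*Cebpb*, chr2:167688665-167688914, plus strand: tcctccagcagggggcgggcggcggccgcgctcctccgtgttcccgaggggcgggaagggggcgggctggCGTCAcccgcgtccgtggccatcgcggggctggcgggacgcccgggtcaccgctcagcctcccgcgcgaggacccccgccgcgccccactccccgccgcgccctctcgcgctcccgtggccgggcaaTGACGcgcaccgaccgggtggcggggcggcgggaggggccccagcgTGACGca
The starts of *Hnf4a* lie 40298 bases apart, and the downstream start is the one known for adult hepatocytes. The counts pool transcripts from both.

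The upstream stretch of *Hnf4a* held a forkhead core (TGTTTNC) at position -238 from the start and an ONECUT core (ATCAAT) at -59, and the downstream stretch held none of the motifs searched. In *Foxa1* a forkhead core lay at -141, and in *Foxa2* an ONECUT core lay at -213 of the most upstream of its 3 starts, with a cyclic AMP response core (TGACG) at position 2. *Onecut1* held that core at -139 and *Cebpb* held it at -180, -53 and -7. Such short motifs are common. Over all 32851 RefSeq windows of 300 bases, 20.5% held the forkhead core, 7.54% the ONECUT core and 20.8% the cyclic AMP response core. A C/EBP site (TTGCNNAA, in 10.8% of all windows), a STAT site (TTCNNNGAA, in 8.30%) and an HNF4 arm (CAAAGTC, in 4.44%) had no match in the 12 windows, which says only that these letters are not there. A TATA box (TATAAA, in 13.6% of all windows) lay at -36 in *Foxa3*, at -30 in *Cebpa*, at -34 of 1 of the *Prox1* starts and elsewhere in the windows of *Foxa2* (-208, most downstream start) and *Cebpb* (22 bases past the start). The other *Prox1* start had a forkhead core at -120.

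*Hnf4a* (chr2:163506808-163572910, plus strand, GRCm38) had 850, 829, 597 and 919 CPM in *Ctrl* 1 to 4 and 653, 570, 444 and 588 CPM in *Srsf10-kd* 1 to 4. *Ctrl* 1, 2 and 4 were above all livers labelled *Srsf10-kd*, but *Ctrl* 3 lay among them, so the groups overlapped. The log2 fold change was -0.50 (SE 0.17, 95% confidence interval -0.88 to -0.13), a level 0.706 times that of *Ctrl*. The unadjusted p of edgeR's quasi-likelihood test was 0.0134 and the Benjamini-Hochberg adjusted p was 0.155, which did not pass 0.05. Exact permutation of the group labels (two-sided, 70 assignments) gave p = 0.0571, where 0.0286 is the smallest possible.

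*Prox1* (chr1:190118035-190170714, minus strand), which in the embryo is needed for hepatoblasts to migrate and in the adult liver restrains bile acid and lipid genes, had 111, 167, 92.4 and 174 CPM in *Ctrl* 1 to 4. In *Srsf10-kd* 1 to 4 it had 86.1, 105, 72.4 and 91.8 CPM. The livers labelled *Srsf10-kd* were lower on average, with *Ctrl* 3 again inside their range and *Ctrl* 2 and 4 far above it. The log2 fold change was -0.61 (SE 0.21, interval -1.08 to -0.15), the unadjusted p in edgeR was 0.0154 and the adjusted p was 0.161. The exact permutation p was 0.0571. *Prox1os*, an antisense gene that shares 133 exon bases with *Prox1*, stood at 7.40 to 8.62 CPM in *Ctrl* and 8.80 to 12.3 CPM in *Srsf10-kd* (log2 fold change 0.41, edgeR adjusted p = 0.145). The strand setting of the counting is not given in the sources used here, so reads of this pair cannot be told apart in the shared bases. *Prox1* itself had 3721 to 10186 counts per liver.

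*Onecut1* (chr9:74861921-74891781, plus strand) had the lowest level per length of the 8 genes and the largest spread within groups. It had 18.7, 3.04, 4.24 and 2.32 CPM in *Ctrl* 1 to 4 and 2.21, 2.08, 18.9 and 6.77 CPM in *Srsf10-kd* 1 to 4. *Ctrl* 1 and *Srsf10-kd* 3 were high, *Srsf10-kd* 4 was in between, and the other livers lay close together regardless of group. The highest liver had 9.11 times the level of the lowest, and the SD within groups was 1.42 on the log2 scale, larger than in 99.7% of the genes tested. The log2 fold change of 0.080 had an interval from -1.74 to 1.90 (edgeR adjusted p = 0.960), so these data do not give *Onecut1* a direction. A lincRNA on the same strand, *Gm20649*, shares 2171 of the 4113 exon bases of *Onecut1* and was listed at 0 in every liver. How reads in the shared bases were assigned is not given in the sources used here and the level of *Onecut1* is uncertain for this reason.

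The forkhead genes all had overlapping groups. *Foxa1* (chr12:57540628-57546916, minus strand) had 31.5, 17.1, 16.1 and 20.5 CPM in *Ctrl* 1 to 4 and 17.6, 14.9, 28.7 and 19.8 CPM in *Srsf10-kd* 1 to 4. *Foxa2* (chr2:148042877-148046969, minus strand), known for its part in the response of the liver to fasting, had 41.3, 24.0, 24.5 and 22.6 CPM in *Ctrl* 1 to 4 and 19.6, 24.3, 62.0 and 36.8 CPM in *Srsf10-kd* 1 to 4. For both genes *Ctrl* 1 and *Srsf10-kd* 3 were the highest livers of their groups, as for *Onecut1*. The groups overlapped over most of their range for *Foxa1*, and for *Foxa2* the *Ctrl* range lay inside that of *Srsf10-kd*. The log2 fold change was -0.074 (interval -0.63 to 0.49, edgeR adjusted p = 0.874) for *Foxa1*. For *Foxa2* it was 0.34 (interval -0.42 to 1.11, edgeR adjusted p = 0.546), and it came to -0.062 without *Srsf10-kd* 3. *Foxa3* (chr7:19013284-19023538, minus strand), the most abundant of the 3 forkhead genes in these livers, had 69.9, 63.5, 62.8 and 76.8 CPM in *Ctrl* 1 to 4 and 77.9, 66.7, 118 and 83.0 CPM in *Srsf10-kd* 1 to 4. Only *Srsf10-kd* 2 fell inside the *Ctrl* range. The log2 fold change of *Foxa3* was 0.34 (SE 0.17, interval -0.04 to 0.71, edgeR adjusted p = 0.262), and it came to 0.15 without *Srsf10-kd* 3 (edgeR adjusted p = 0.518).

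*Cebpa* (chr7:35119293-35121928, plus strand), which drives the metabolic genes of mature hepatocytes and restrains proliferation, was steady in *Ctrl*, at 475, 421, 469 and 447 CPM. In *Srsf10-kd* 1 to 4 it had 333, 421, 569 and 448 CPM, with the lowest and the highest liver of all 8 in this group. The log2 fold change was -0.032 (interval -0.38 to 0.32, edgeR adjusted p = 0.916). *Cebpb* (chr2:167688915-167690418, plus strand), which drives acute-phase and gluconeogenic genes, had 154, 123, 89.1 and 112 CPM in *Ctrl* 1 to 4 and 183, 166, 246 and 184 CPM in *Srsf10-kd* 1 to 4. Each liver labelled *Srsf10-kd* was above each *Ctrl* liver, and *Cebpb* was the only one of the 8 genes whose groups did not overlap. Its log2 fold change was 0.71 (SE 0.18, interval 0.30 to 1.11), a 1.63-fold higher level. The exact permutation p was 0.0286, the smallest the design allows, and in edgeR the unadjusted p was 0.00308 and the adjusted p was 0.119, which did not pass 0.05. *Cebpb* shares 312 of its 1504 exon bases with *Tmem189* on the opposite strand, a gene at 21.1 to 28.9 CPM in *Ctrl* and 23.4 to 25.4 CPM in *Srsf10-kd*.

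**Figure D1:**
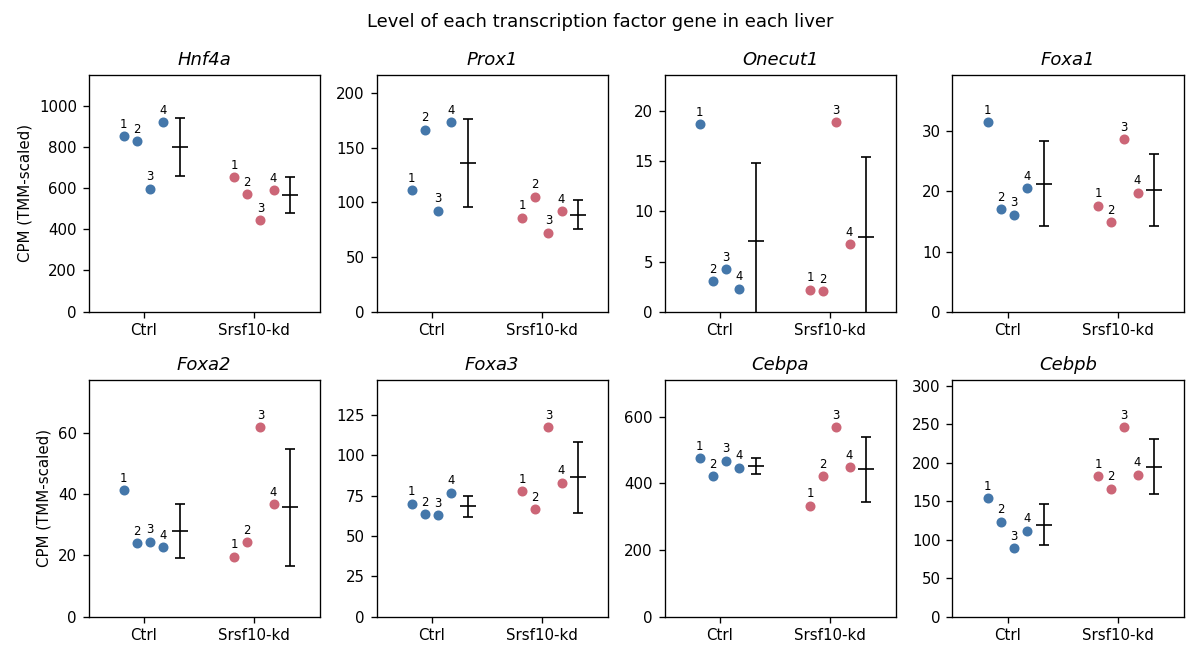
Level of each of the 8 genes in CPM (TMM-scaled, vertical axes from 0) in each liver of the *Ctrl* (blue) and *Srsf10-kd* (red) groups, with the replicate number beside each point. Black bars give the mean and SD of 4 livers, cut at 0 for *Onecut1*. *Cebpb* is the only panel without overlap between groups, and *Ctrl* 1 and *Srsf10-kd* 3 stand out for *Onecut1*, *Foxa1* and *Foxa2*.

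Read as a set, 0 of the 8 genes passed an adjusted p of 0.05 in edgeR, a threshold that 0.071% of all 15491 tested genes passed. At an unadjusted p under 0.05 there were 3, namely *Hnf4a* and *Prox1*, which were lower in *Srsf10-kd*, and *Cebpb*, which was higher. Over all tested genes 21.8% had such a p, 11.2% in the higher and 10.6% in the lower direction. Groups without overlap and higher in *Srsf10-kd* were found for *Cebpb* and for 6.73% of all tested genes. The 8 genes divided evenly by direction, and their median log2 fold change of 0.024 was close to the 0.013 of all tested genes.

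Other ways of fitting moved some of these calls. DESeq2 called *Cebpb* alone (adjusted p = 0.0179), where it called 5.21% of all genes. limma-voom with sample quality weights, which gives discordant libraries less weight, called *Hnf4a* (log2 fold change -0.46, adjusted p = 0.0274), *Cebpb* (0.52, adjusted p = 0.0314) and *Prox1* (-0.62, adjusted p = 0.0389), where it called 11.7% of all genes. A further edgeR fit, added after the data were seen, left out *Ctrl* 3 and *Srsf10-kd* 3, the libraries with the lowest length slope of their groups. *Hnf4a* (adjusted p = 0.0271) and *Prox1* (adjusted p = 0.0493) passed in it, with 8.62% of all genes. *Ctrl* 3 was the only *Ctrl* liver within the *Srsf10-kd* range of *Hnf4a* and *Prox1*, so this fit does not test them independently of that choice. The value of *Cebpb* in that fit was 0.46 (adjusted p = 0.066). When the trend of each library on transcript length was taken out, the log2 fold changes of *Hnf4a*, *Prox1* and *Cebpb* were -0.37, -0.31 and 0.50, with edgeR adjusted p of 0.266, 0.369 and 0.243.

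**Figure D2:**
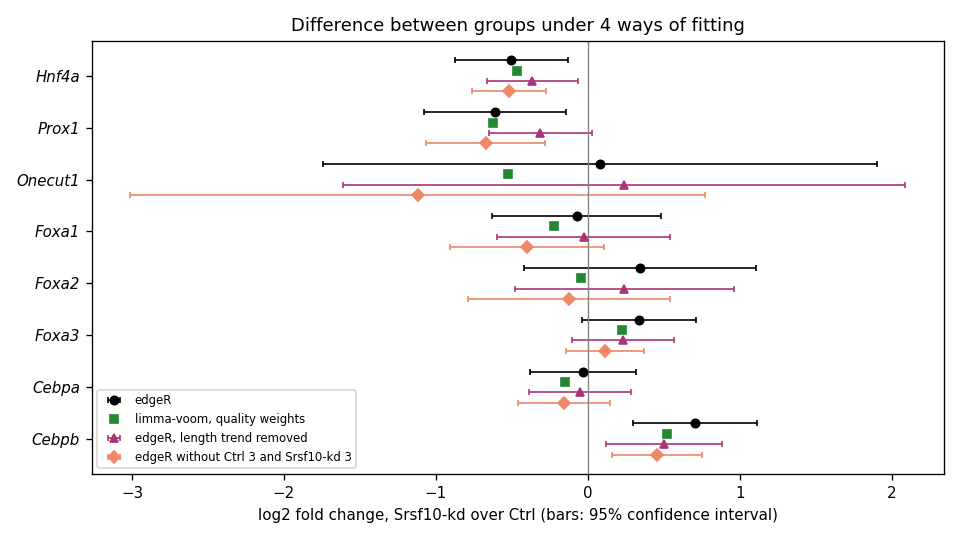
Log2 fold change of each gene, livers labelled *Srsf10-kd* over *Ctrl*, from edgeR with all livers (circles), limma-voom with quality weights (squares, drawn without bars), edgeR with each library's length trend removed (triangles) and edgeR without *Ctrl* 3 and *Srsf10-kd* 3 (diamonds). Bars are 95% confidence intervals. *Hnf4a* and *Prox1* lie below 0 and *Cebpb* above 0 under all 4, while *Onecut1* and *Foxa2* lie on both sides.

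The levels of *Hnf4a* and *Prox1* were correlated with the length slope of the library. That slope is fitted to the log2 CPM of all tested genes, so genes with long transcripts follow it in part by construction. How many other tested genes have such an r was not computed. The permutations below exchanged all 8 livers and did not remove the group difference. Over the 8 livers, the correlation of log2 CPM with the slope was r = 0.981 for *Hnf4a* (exact permutation p = 0.000521, adjusted over 8 genes 0.00208) with Spearman's rho = 0.833 (permutation p = 0.0154, adjusted 0.0615). Without *Ctrl* 4 and *Srsf10-kd* 3, the livers farthest from the median slope, r was 0.954, and it was 0.993 within *Ctrl* and 0.931 within *Srsf10-kd*. For *Prox1*, r was 0.901 (exact permutation p = 0.000397, adjusted 0.00208) and rho was 0.929 (permutation p = 0.00223, adjusted 0.0179), with r = 0.821 without these livers, 0.860 within *Ctrl* and 0.847 within *Srsf10-kd*. For the other 6 genes, r lay between -0.689 and -0.109 and none passed the adjusted threshold. Within the 4 *Srsf10-kd* livers their r lay between -0.971 and -0.882, where *Srsf10-kd* 3 had the lowest slope of the 8 livers, and within *Ctrl* between -0.470 and 0.700. *Prox1* and *Hnf4a* are also the genes with the longest transcripts of the 8, of 7913 and 4362 bases, and *Cebpb* has the shortest, of 1504 bases. Across the 8 genes the log2 fold change and the log2 transcript length had r = -0.927, and across 15429 tested genes with a known length r = -0.438. These are descriptions across genes, which are not independent replicates. The part of the length slope in the differences of *Hnf4a*, *Prox1* and *Cebpb* was not tested beyond the fit with the trend removed.

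Per length, the 8 genes spanned a wide range. Here the level is the CPM per 1000 exon bases (RPKM), with the exons of a gene merged, so that levels of different genes can be compared. *Cebpa* came first with a median of 169.7 RPKM over the 8 livers (126 to 216), followed by *Hnf4a* with 129.5 (92.0 to 190) and *Cebpb* with 106 (59.2 to 164). All 3 were above 97.0% of tested genes in mean level. *Foxa3* followed with 36.0 RPKM (30.8 to 57.7), *Prox1* with 11.8 (8.63 to 20.7), *Foxa2* with 10.3 (8.25 to 26.1), *Foxa1* with 5.62 (4.47 to 9.47) and *Onecut1* with 0.885 (0.505 to 4.597).

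Neighbours in this order were compared within livers with a two-sided exact sign-flip permutation test over 8 livers, adjusted over the 7 pairs. *Cebpa* and *Hnf4a* were not separated (mean log2 difference in RPKM 0.29, SD 0.48, higher in 5 of 8 livers, exact adjusted p = 0.137), nor were *Hnf4a* and *Cebpb* (0.46, SD 0.73, 6 of 8 livers, exact adjusted p = 0.131). In the *Srsf10-kd* group the mean of *Cebpb* (130 RPKM) was above that of *Hnf4a* (117 RPKM), and in *Ctrl* it was below (79.4 against 165.5 RPKM). *Prox1* and *Foxa2* were not separated either (0.036, SD 0.87, exact adjusted p = 0.938). The other 4 steps had the same direction in all 8 livers (exact adjusted p = 0.0137), with mean log2 differences of 1.43 from *Cebpb* to *Foxa3*, 1.54 from *Foxa3* to *Prox1*, 1.05 from *Foxa2* to *Foxa1* and 2.34 from *Foxa1* to *Onecut1*. The last step was not separated when the bases that *Onecut1* shares with *Gm20649* were left out of its length (mean log2 difference 1.26, 6 of 8 livers, exact adjusted p = 0.0547). Without *Srsf10-kd* 3, *Hnf4a* was above *Cebpb* by 0.65 (6 of 7 livers, exact adjusted p = 0.0437).

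**Figure D3:**
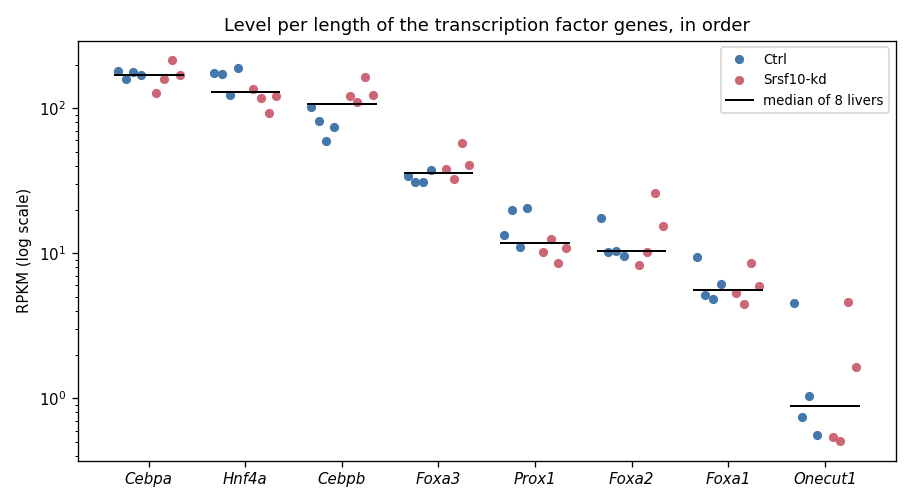
Level per length (RPKM, log scale) of the 8 genes in each liver, *Ctrl* in blue and *Srsf10-kd* in red, ordered by the median of 8 livers (black line). *Cebpa*, *Hnf4a* and *Cebpb* share a range near the top, *Prox1* and *Foxa2* overlap in the middle, and *Onecut1* is lowest with *Ctrl* 1 and *Srsf10-kd* 3 well above its median.

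Variation of the genes among livers, apart from the group difference, was described by correlation. The log2 CPM of each gene was centred on its group mean and the 28 pairs of genes were correlated over the 8 livers, with exact permutation within groups and adjustment over the 28 pairs. The correlation was positive for 17 pairs and negative for 11. An unadjusted p under 0.05 was reached by 8 pairs, all of them positive and all among the forkhead genes, *Onecut1*, *Cebpa* and *Cebpb*, and 0 pairs passed after adjustment. How often pairs of other tested genes reach such a p was not computed, so the count is not read as particular to these genes. *Foxa2* and *Onecut1* were closest, with r = 0.958 (exact permutation p = 0.00521, adjusted p = 0.132) and rho = 0.952 (permutation p = 0.00694, adjusted 0.146). Without *Ctrl* 1 and *Srsf10-kd* 3, the livers farthest from the median, r was 0.866, and leaving out any 1 liver kept it between 0.940 and 0.977. *Foxa1* and *Onecut1* had r = 0.887 (exact permutation p = 0.0226, adjusted p = 0.132) and rho = 0.786 (permutation p = 0.0469, adjusted 0.188), but r = 0.314 without the same livers. *Foxa1* and *Foxa2* had r = 0.849 (exact permutation p = 0.0278, adjusted p = 0.132) and rho = 0.690 (permutation p = 0.0972, adjusted 0.272), and r = 0.305 without them. These relations of *Foxa1* with *Onecut1* and *Foxa2* thus rested on *Ctrl* 1 and *Srsf10-kd* 3. *Foxa1* and *Foxa3* had r = 0.765 (exact permutation p = 0.0312, adjusted p = 0.132) and rho = 0.857 (permutation p = 0.0191, adjusted 0.146), and r = 0.825 without these livers. *Foxa1* and *Cebpb* had r = 0.893 (exact permutation p = 0.0122, adjusted p = 0.132) and rho = 0.833 (permutation p = 0.0260, adjusted 0.146), and r = 0.501 without them. *Foxa2* and *Cebpa* had r = 0.887 (exact permutation p = 0.0156, adjusted p = 0.132) and rho = 0.905 (permutation p = 0.0122, adjusted 0.146), and r = 0.8285 without these livers. *Hnf4a* and *Prox1*, which had the same direction between groups, had r = 0.720 (exact permutation p = 0.0521, adjusted p = 0.146) and rho = 0.476 (permutation p = 0.285, adjusted 0.427), but r = -0.040 without *Ctrl* 3 and *Srsf10-kd* 3.

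For each of the 8 genes, the genes with the most similar pattern, up to 3, are given from 8045 protein-coding genes with a mean log2 CPM of at least 3, by Pearson's r of log2 CPM over the 8 livers, group difference included. *Onecut1* was most like *Cish* (r = 0.960), a cytokine-inducible feedback inhibitor, then *Foxa2* (0.933) and *Plcxd2* (0.930). *Foxa2* was most like *Cpsf4* (0.961), *Cish* (0.957) and *Nrep* (0.944). *Cish* had 26.1, 2.58, 5.63 and 2.001 CPM in *Ctrl* 1 to 4 and 3.17, 3.38, 51.0 and 15.5 CPM in *Srsf10-kd* 1 to 4. It was thus high in the livers in which *Onecut1* and *Foxa2* were high, *Ctrl* 1, *Srsf10-kd* 3 and, less so, *Srsf10-kd* 4. *Foxa1* was most like *Plcxd2* (0.947), *Lifr* (0.938) and *Plk3* (0.923). *Hnf4a* was most like *Trak2* (0.994) and *Cltc* (0.992), and *Prox1* was most like *Enpp1* (0.987) and *Mtmr12* (0.973). These 4 genes have transcripts of 6189 to 6840 bases, longer than that of *Hnf4a* (4362 bases) and shorter than that of *Prox1* (7913 bases). Transcripts this long also occurred among the genes most like *Foxa1* and *Onecut1*. Of the genes most like *Foxa1*, *Plcxd2*, which is also given for *Onecut1*, has 7140 bases, *Lifr* 9655 and *Plk3* 2378. The genes given for *Foxa2*, *Foxa3*, *Cebpa* and *Cebpb* have shorter transcripts, from 1597 bases (*Fetub*) to 4672 bases (*Spast*). *Foxa3* was most like *Sin3b* (0.986), *Fetub* (0.983) and *Samd1* (0.981), *Cebpb* was most like *Rbm39* (0.978), *Itgb1bp1* (0.976) and *Becn1* (0.976), and *Cebpa* was most like *Spout1* (0.927), the clock output gene *Dbp* (0.916) and *Spast* (0.884). With 8 points and 8045 candidates, these are descriptions without a test.

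Paralogs of the 8 factors, other genes of the HNF4, C/EBP, ONECUT and PROX families, had 8 of 9 members tested. None passed an adjusted p of 0.05 in edgeR, and at an unadjusted p under 0.05 there were 3 of 8 higher and 0 lower, where 11.2% of all tested genes were higher and 10.6% lower. Their median log2 fold change was 0.19. *Cebpd*, which heterodimerises with *Cebpb* products in the acute phase, had 10.9, 11.6, 11.7 and 10.04 CPM in *Ctrl* 1 to 4 and 16.1, 12.8, 18.2 and 13.6 CPM in *Srsf10-kd* 1 to 4. As for *Cebpb* and 6.73% of all tested genes, its groups did not overlap and *Srsf10-kd* was higher (log2 fold change 0.46, edgeR adjusted p = 0.132). *Ddit3*, a C/EBP-related stress factor, had a log2 fold change of 0.56 (edgeR adjusted p = 0.190) and *Hnf4g* one of 0.69 (edgeR adjusted p = 0.201) at 0.382 to 1.07 CPM. *Onecut2*, at 88.0 to 151 CPM, was far above the 2.08 to 18.9 CPM of *Onecut1* but did not differ in a way these data could show (0.15, edgeR adjusted p = 0.580).

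Of 20 other transcription factors of the hepatocyte network, 2 were higher and 4 lower at an unadjusted p under 0.05 (11.2% and 10.6% of all tested genes), 0 passed the adjusted threshold in edgeR, and the median log2 fold change was -0.11. *Rxra*, a nuclear receptor partner, had 511, 510, 313 and 552 CPM in *Ctrl* 1 to 4 and 376, 361, 240 and 373 CPM in *Srsf10-kd* 1 to 4 (log2 fold change -0.48, edgeR adjusted p = 0.211). Like *Hnf4a*, it was lowest in *Ctrl* 3 and *Srsf10-kd* 3 within their groups. *Nr1i2*, the xenobiotic receptor PXR, was lower without overlap between groups, as 7.53% of all tested genes were, at 112 to 130.0 CPM in *Ctrl* and 98.9 to 106 CPM in *Srsf10-kd* (-0.24, edgeR adjusted p = 0.199). *Nr2f2* was higher without overlap, as were 6.73% of all tested genes, at 30.1 ± 1.62 CPM (SD, n = 4) in *Ctrl* and 36.6 ± 4.16 CPM in *Srsf10-kd* (0.29, edgeR adjusted p = 0.1799). The other higher gene was *Hhex* (0.86, edgeR adjusted p = 0.229) and *Tbx3* was among the lower ones (-0.64, edgeR adjusted p = 0.216).

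Genes known to be driven by the 8 factors were counted in the same way, with 0 genes past the adjusted threshold in edgeR in any of these lists. Of 24 targets of HNF4A, 2 were higher and 3 were lower at an unadjusted p under 0.05, a share near the 11.2% and 10.6% of all tested genes, and the median log2 fold change was -0.15. The lowest p was that of *Apob*, the structural protein of very low density lipoprotein, with 7451, 9353, 7254 and 9107 CPM in *Ctrl* 1 to 4 and 5231, 4749, 2659 and 4782 CPM in *Srsf10-kd* 1 to 4. Its groups did not overlap, as for 7.53% of all tested genes in the lower direction, with a log2 fold change of -0.93 (edgeR unadjusted p = 0.00155, adjusted p = 0.115). *Mttp*, which loads lipid onto that protein, had -0.38 (edgeR adjusted p = 0.199), while *Apoc2* (0.31, adjusted p = 0.199) and the urea cycle gene *Otc* (0.46, adjusted p = 0.191) were on the other side of 0 in the same test. The list thus held values in both directions, and with the length trend removed its median was -0.19.

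Of 13 tested FOXA targets, 0 were higher and 1 was lower at an unadjusted p under 0.05, with a median of -0.12. Of 15 metabolic targets of CEBPA, 1, *Otc*, was higher and 0 were lower, with a median of -0.15. Of 10 genes regulated by ONECUT1 or PROX1, 0 were past an unadjusted p of 0.05 in either direction. This includes *Cyp7a1* and *Cyp8b1*, enzymes of bile acid synthesis, whose log2 fold changes were -0.18 (edgeR adjusted p = 0.712) and -0.49 (edgeR adjusted p = 0.336). Of 16 acute-phase genes driven by CEBPB, 7 were higher and 1, the complement gene *C3*, was lower at an unadjusted p under 0.05, beside 11.2% higher and 10.6% lower of all tested genes, and the median was 0.42, or 0.21 with the length trend removed. *Saa1*, a serum amyloid, had 42.2, 18.0, 22.0 and 29.4 CPM in *Ctrl* 1 to 4 and 747, 102, 130.3 and 17.6 CPM in *Srsf10-kd* 1 to 4 (log2 fold change 3.16, edgeR adjusted p = 0.132). *Saa2* had 18.9, 7.39, 11.5 and 8.48 CPM against 516, 64.0, 37.5 and 6.82 CPM (3.75, edgeR adjusted p = 0.133). Both were highest in *Srsf10-kd* 1 and lowest in *Srsf10-kd* 4, whereas *Cebpb* was at about the same level in these livers (183 and 184 CPM) and highest in *Srsf10-kd* 3. *Apcs*, serum amyloid P, had a log2 fold change of 0.53 (edgeR adjusted p = 0.166). Of 10 genes of fetal hepatocytes, 6 were tested, 2 of them, *Igf2* (0.75, edgeR adjusted p = 0.133) and *Cd24a* (0.51, edgeR adjusted p = 0.170), were higher at an unadjusted p under 0.05, and *Lin28b* was at 0 in every liver. Of the 6 tested genes 5 lay above 0 and 1, *H19*, below it (log2 fold change -1.23, edgeR adjusted p = 0.356). *H19* had 0.0981 to 1.04 CPM in *Ctrl* and 0.0713 to 0.418 CPM in *Srsf10-kd*. The median of the list was 0.44, with *Igf2* at 0.938 to 1.83 CPM in *Ctrl* and 1.83 to 2.33 CPM in *Srsf10-kd*, and *Afp* at most 1.26 CPM in any liver.

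Markers of the cell types that a piece of liver can hold were measured in the same libraries, and their counts below stand beside 11.2% higher and 10.6% lower at an unadjusted p under 0.05 over all tested genes. The 21 hepatocyte markers were summed to 111800 to 137100 CPM in *Ctrl* and 129400 to 146900 CPM in *Srsf10-kd*, so the defining genes of the labelled tissue were abundant. At an unadjusted p under 0.05, 4 of them (*Trf*, *Apoa2*, *Apoh* and *Asgr1*) were higher and 0 lower. The 8 bile duct markers were all at a higher mean in *Srsf10-kd*, 5 of them (*Tspan8*, *Krt19*, *Spp1*, *Epcam* and *Cftr*) at an unadjusted p under 0.05, with summed levels of 41.8, 41.9, 38.5 and 33.8 CPM in *Ctrl* 1 to 4 and 55.2, 51.6, 74.4 and 54.0 CPM in *Srsf10-kd* 1 to 4. *Krt19*, a defining keratin, had 5.17 to 8.79 CPM in *Ctrl* and 9.50 to 11.6 CPM in *Srsf10-kd* (log2 fold change 0.73, edgeR adjusted p = 0.116). The sum was highest in *Srsf10-kd* 3, as were *Foxa2* and *Onecut1*, but *Ctrl* 1, where these genes were also high, was within the range of the other *Ctrl* livers. Much of the sum was *Spp1*, with 44.7 CPM in *Srsf10-kd* 3 and 27.1 to 29.5 CPM in the other livers of that group. *Spp1* had 17.8 to 26.6 CPM in *Ctrl*, with the highest value in *Ctrl* 1, and *Krt19* was highest in *Srsf10-kd* 1. The 5 lymphatic endothelial markers summed to 68.2 to 94.5 CPM in *Ctrl* and 96.3 to 114 CPM in *Srsf10-kd*. Of these, 3 (*Ccl21a*, *Mmrn1* and *Pdpn*) were higher at an unadjusted p under 0.05. *Flt4* was on the other side of 0 (log2 fold change -0.115, edgeR adjusted p = 0.637). *Prox1* was on average lower in *Srsf10-kd*. The part of these cells in the levels of *Foxa2*, *Onecut1* and *Prox1* was not tested.

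All 5 markers of pancreatic acinar cells (*Ctrb1*, *Pnlip*, *Cela2a*, *Prss2* and *Cpa1*) were higher at an unadjusted p under 0.05 in *Srsf10-kd*. They summed to 8.85, 7.38, 10.2 and 6.36 CPM in *Ctrl* 1 to 4 and to 12.4, 254, 18.9 and 14.4 CPM in *Srsf10-kd* 1 to 4, so that *Srsf10-kd* 2 stood far above the other livers. In that liver *Onecut1* (2.08 CPM) and *Foxa1* (14.9 CPM) had their lowest levels of all livers. *Foxa2* (24.3 CPM) was within the *Ctrl* range, and *Prox1* (105 CPM) was the highest of its group. The part of pancreatic cells in the levels of these genes was not tested. Macrophage and Kupffer cell, neutrophil and stellate cell and fibroblast markers had 0 genes past an unadjusted p of 0.05 in either direction in edgeR. Of the 9 lymphocyte markers, 7 were tested and 1, *Cd79a*, was higher. The 8 endothelial markers had 2 higher (*Lyve1* and *Pecam1*) and 2 lower (*Stab2* and *Oit3*).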

How the data were processed

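The authors aligned the reads of 8 directional poly(A) libraries, sequenced from both ends, to GRCm38 with STAR (2.7.7a, per the submitters' processing notes) and deposited raw counts of reads per gene as STAR gave them. The annotation release and the strand column are not given in the sources used here. All 8 columns were matched to livers by their labels, and 0 columns belonged to no sample.

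Counts were analysed in R 4.3.3 with edgeR 4.0.16 (TMM, filterByExpr, quasi-likelihood test on condition alone, two-sided, Benjamini-Hochberg adjustment over 15491 genes, threshold 0.05). Intervals are 95% and rest on 4 livers per group. Log2 CPM used a prior count of 2, and RPKM divided CPM by merged exon length from GENCODE M21. Alternatives were limma 3.58.1 (voom with sample quality weights), DESeq2 1.42.0, its size factors in edgeR, library size only, a stricter filter (10 counts or more in all livers) or none, a block on the replicate number, a lowess length trend (span 0.5) removed per library, and each liver left out. For the order per length, the longest coding transcript replaced the merged exons, and for the correlations the group means were kept or the length trend removed. Leaving out *Ctrl* 3 and *Srsf10-kd* 3 together, and the exon bases that no other gene covers, were added after the data were seen. Scripts were tested on simulated data. Promoter stretches come from RefSeq on GRCm38.p6, where all 8 genes matched.

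The 8 genes and the 17 lists were chosen with earlier results of these data known. Named are the 8 genes, the genes most like each (up to 3), and of each list up to 4 genes with the smallest p and those that the background needs. Other list genes named (the rest of a count of 5 or fewer, such as *C3*, *Hhex*, *Tbx3*, *Cftr* and *Cpa1*) were chosen after their values were seen. Exons shared with other genes make *Onecut1*, *Cebpb* and *Prox1* uncertain, and 51 exon bases of *Cebpa* are shared with a gene not in the counts. Splicing and polyadenylation were not analysed here. Some genes that this rule would name are not reported here.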

Additional observations from a re-analysis of the deposited data

Results flagged for a closer look

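Among 20 sets of 4 livers examined, 2 had a liver far from the other 3, where chance alone gives about 1. In *Ctrl* 1, *Foxa2* had 41.3 CPM, while *Ctrl* 2 to 4 had between 22.6 and 24.5 CPM. *Onecut1* had 18.7 CPM in that liver, while *Ctrl* 2 to 4 had between 2.32 and 4.24 CPM. Both values come from the same liver. It was also the highest of its group for *Foxa1*, at 31.5 CPM.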

How the results depend on the processing

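The number of genes called was 11 in edgeR, all lower in *Srsf10-kd*, and 819 with DESeq2, 1814 with limma-voom, 46 without a filter on low counts, 59 with the replicate block, 1342 without *Ctrl* 3 and *Srsf10-kd* 3, and 0 to 544 with 1 liver left out. The 544 came without *Ctrl* 3, and the fits with 0 calls still had 2154 to 3656 genes at an unadjusted p under 0.05. Of the 8 factors, 0 were called in edgeR, 1 with DESeq2, 3 with limma-voom, 2 without *Ctrl* 3 and *Srsf10-kd* 3, and 0 with the replicate block or any 1 liver left out. Deviations of livers with the same number correlated at 0.213 to 0.265 for 3 of 4 numbers and at -0.176 for number 1. Livers of different numbers were not correlated, so these values cannot decide whether the number pairs the livers. The main fit used no pairing. With the block, the adjusted p of *Hnf4a* was 0.0756 and that of *Prox1* 0.0743. Without group centring, 1 pair of genes (*Foxa2* and *Onecut1*) passed the adjusted threshold in place of 0.

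Directions changed for 4 genes, none of them called. *Foxa2* came to -0.044 with limma-voom, -0.062 to 0.59 with 1 liver left out (the lowest without *Srsf10-kd* 3) and -0.12 without *Ctrl* 3 and *Srsf10-kd* 3. *Onecut1* came to -0.52 with limma-voom, -1.12 without *Ctrl* 3 and *Srsf10-kd* 3, and -0.94 to 1.23 with 1 liver left out (below 0 without *Ctrl* 2, 3 or 4 or *Srsf10-kd* 3). With 1 liver left out, *Foxa1* ranged from -0.29 to 0.18 and *Cebpa* from -0.17 to 0.083. The cause was not tested. *Hnf4a*, *Prox1*, *Cebpb* and *Foxa3* kept their direction under all 17 alternatives. With 4 livers per group, the interval of *Onecut1* leaves differences of over 3-fold in either direction undecided.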
